A study of Homo sapiens with 8 samples.

Results

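The miR-320 family was examined in 2 HER2-positive breast cancer cell lines as the 5 human miRNAs named hsa-miR-320a, hsa-miR-320b, hsa-miR-320c, hsa-miR-320d and hsa-miR-320e, taken by exact name among the non-control spots of the array, which carries 2006 human miRNAs of miRBase release 19. BT474 and SKBR3 cells, established lines from breast tumours that overexpress the receptor HER2, were cultured for 144 h with 6 μg/mL trastuzumab, an antibody against HER2, or with PBS as control, and their total RNA, carrying the dye Cy3, was measured on one-colour arrays. The 2 lines were kept in different media, and BT474 medium also held bovine insulin. The labels give 2 biological replicates per line and treatment, which makes 8 arrays, all on 1 slide and read in 1 scan. The array labelled SKBR3 PBS replicate 1 was identical to BT474 PBS replicate 1 in 62344 of 62344 spots, so that 7 distinct arrays remained: 2 BT474 PBS, 2 BT474 trastuzumab, 1 SKBR3 PBS and 2 SKBR3 trastuzumab. Slide row 2 held the PBS arrays and row 1 those of trastuzumab, and the distinct BT474 arrays in slide columns 1 and 2 and the SKBR3 arrays in columns 3 and 4, so that treatment and row cannot be told apart, nor can line and column.

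Most miRNAs are cut out of a long primary transcript by the nuclear enzyme Drosha and then shortened by Dicer. The miR-320 hairpin is the best known exception: it is transcribed directly as a short capped hairpin that leaves the nucleus without Drosha and is processed by Dicer alone, and the mature miRNA comes from the 3′ arm. In the mammary gland miR-320 has been studied in fibroblasts. The data here are levels of the mature miRNAs, and processing itself was not measured.

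The mature sequences are shown because the members differ in so few bases that one probe may take up another member. In the RefSeq table used here (GRCh38.p14), 4 of the 5 members were matched by name, hsa-miR-320b to hsa-miR-320e, which come from 7 loci. hsa-miR-320a was not matched, and its sequence is not compared here. The sequences are written 5′ to 3′ with the seed, bases 2 to 8, in capitals, together with hsa-miR-4429, which the array also carries and which has one of these seeds.
hsa-miR-320b: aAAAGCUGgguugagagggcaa
hsa-miR-320c: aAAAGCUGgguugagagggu
hsa-miR-320d: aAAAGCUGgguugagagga
hsa-miR-320e: aAAGCUGGguugagaagg
hsa-miR-4429: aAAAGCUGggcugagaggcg

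hsa-miR-320b, hsa-miR-320c and hsa-miR-320d had the same seed. hsa-miR-320e began 1 base further downstream, so that its seed was shifted by 1 base. With positions counted from 1 at the 5′ end of hsa-miR-320b, hsa-miR-320c ended at position 20 and differed by C20U, hsa-miR-320d ended at position 19 and differed by G19A, and hsa-miR-320e covered positions 2 to 19 and differed by G17A. The 4 sequences shared the stretch aaagcuggguugaga of 15 bases, which none of the other names among the 2370 human mature miRNAs of that table contained. hsa-miR-320a is not among those names, so this does not tell whether it holds the stretch. hsa-miR-4429 had the seed but differed from hsa-miR-320b at 3 positions, U11C, G19C and C20G.

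The loci lie on 5 chromosomes (GRCh38.p14). Mature hsa-miR-320b lies at chr1:116671787-116671808 on the plus strand in MIR320B1, and at chr1:224257049-224257070 on the minus strand in MIR320B2, within the bounds of NVL, which encodes an ATPase of ribosome assembly. Mature hsa-miR-320c lies on the plus strand at chr18:21683559-21683578 in MIR320C1, within the bounds of ABHD3, and at chr18:24321716-24321735 in MIR320C2, within the bounds of OSBPL1A, which encodes an oxysterol-binding protein. Mature hsa-miR-320d lies on the minus strand at chr13:40727828-40727846 in MIR320D1 and at chrX:140926172-140926190 in MIR320D2, with no annotated gene spanning either hairpin. Mature hsa-miR-320e lies at chr19:46709294-46709311 on the minus strand in MIR320E, within the bounds of PRKD2, which encodes a protein kinase. In each of the 7 hairpins the mature sequence began at base 41 or later and ended 9 to 12 bases before the end of the annotated hairpin, which puts it on the 3′ arm. Whether a hairpin lies in an exon or an intron was not analysed here, and an array of mature miRNAs does not tell the loci of one member apart.

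The 5 members were detected on all 7 distinct arrays, as were 173 of the 2006 miRNAs. Per array 201 to 256 miRNAs were detected, with 247 to 256 in BT474 and 201 to 218 in SKBR3. Of 5 epithelial marker miRNAs, all 5 were detected on every BT474 array, but only hsa-miR-141-3p and hsa-miR-200c-3p were detected in SKBR3, and hsa-miR-200a-3p, hsa-miR-200b-3p and hsa-miR-429 were detected on none of the 3 SKBR3 arrays. None of 4 blood cell, 4 stroma and muscle, and 1 liver marker was detected on any distinct array.

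Each member was measured by 2 probes with 15 spots per probe, and none of the 1050 member spots on the 7 arrays was saturated. The software adds up the probes it counts as detected into a summed signal for the miRNA, in fluorescence units. These signals are given first with no scaling between arrays. The error that the software attached to the summed signals of the members was 8.26% to 10.5% of the signal.

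The summed signal of hsa-miR-320a was 380.4 and 450.0 on the BT474 PBS arrays, 479 and 574 on the BT474 trastuzumab arrays, 300.5 on the SKBR3 PBS array, and 367 and 354 on the SKBR3 trastuzumab arrays. All 4 BT474 arrays were above the 3 SKBR3 arrays. The summed signal of hsa-miR-320b was 772 and 906 with PBS and 894 and 1117 with trastuzumab in BT474, and 568 with PBS and 785 and 708 with trastuzumab in SKBR3. Here the lines overlapped, since the lowest BT474 array lay below the highest SKBR3 array. The summed signal of hsa-miR-320d was 942 and 1095 with PBS and 1060.3 and 1358 with trastuzumab in BT474, and 714 with PBS and 978 and 896 with trastuzumab in SKBR3. The summed signal of hsa-miR-320e was 677 and 817 with PBS and 790.1 and 998 with trastuzumab in BT474, and 497 with PBS and 724 and 658 with trastuzumab in SKBR3. In both members the lines overlapped in the same way. BT474 trastuzumab replicate 2 was the highest array and SKBR3 PBS replicate 2 the lowest for each of these 4 members. The same 2 arrays also had the highest and the lowest median signal over the 173 miRNAs detected everywhere, with a median log2 signal of 9.83 and 8.46.

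**Figure D1:**
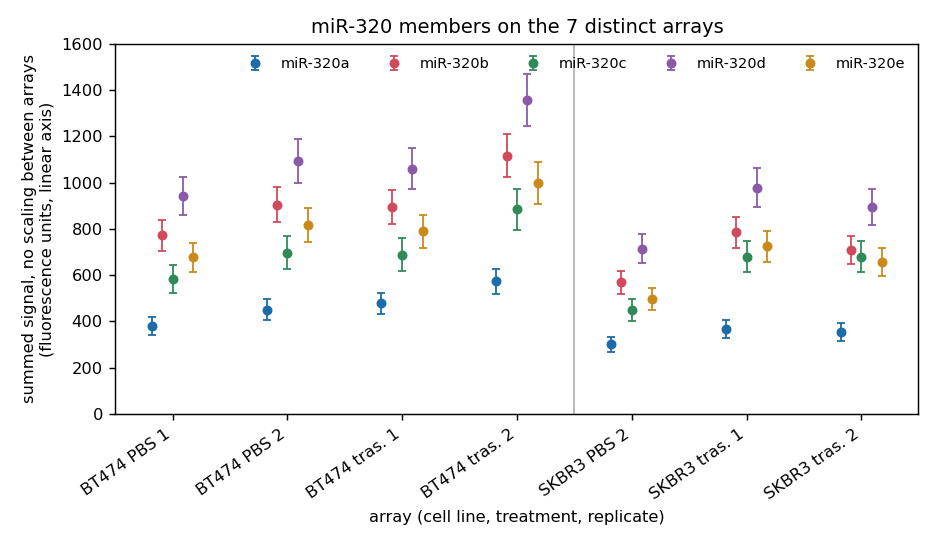
Summed signal of each member (fluorescence units with no scaling between arrays, linear vertical axis) on the 7 distinct arrays along the horizontal axis. Points are single arrays and bars the error given by the software. BT474 trastuzumab replicate 2 was the highest array and SKBR3 PBS replicate 2 the lowest for each of the 5 members.

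The summed signal of hsa-miR-320c was 582 and 697 with PBS and 689 and 884 with trastuzumab in BT474, and 449 with PBS and 680.3 and 680.4 with trastuzumab in SKBR3. This member differed from the others in what had been added up. Its brighter probe gave 449 to 884 and was counted on all 7 arrays. Its dimmer probe gave 23.0 to 56.7 and was counted only on the 2 SKBR3 trastuzumab arrays, where it read 52.4 and 56.7. The dimmer probe lay at 3.06 and 3.35 times its own error on these 2 arrays and at 1.49 to 2.91 times on the other 5. On its own the brighter probe read 449 on the SKBR3 PBS array and 628 and 624 on the SKBR3 trastuzumab arrays.

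In the other 4 members both probes were counted on every array. The brighter probe of hsa-miR-320a gave 245 to 471 and the dimmer one 55.9 to 103. The 15 spots of each brighter probe were well above background on every array for all 5 members, and so were those of the dimmer probes of hsa-miR-320b and hsa-miR-320d. Of the dimmer probe's 15 spots, 4 to 12 per array were well above background for hsa-miR-320a, 7 to 15 for hsa-miR-320e and 0 to 3 for hsa-miR-320c. Both probes of hsa-miR-4429 read background: the brighter gave at most 0.462 and the dimmer at most -3.62, and this miRNA was detected on no array.

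**Figure D2:**
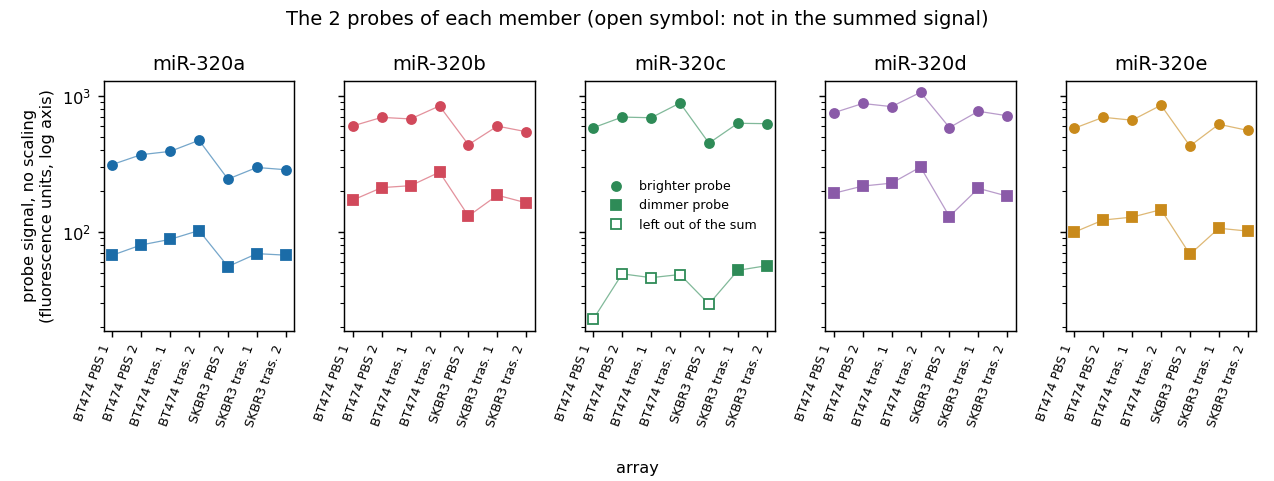
Signal of the brighter (circles) and the dimmer (squares) probe of each member on the 7 distinct arrays (fluorescence units with no scaling, log axis). An open symbol marks a probe that the software left out of the summed signal, which was the case for the dimmer probe of hsa-miR-320c on 5 of the 7 arrays.

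The signals of the members stood in similar ratios on the 7 arrays. Among the 10 pairs of members, the SD over the 7 arrays of the log2 ratio of their unscaled summed signals was 0.034 to 0.16, with a median of 0.088. The same SD had a median of 0.68 and a lowest value of 0.0333 over the 14878 pairs of these 173 miRNAs. Among the member pairs the smallest SD was that of hsa-miR-320b against hsa-miR-320d (0.0338), and the largest that of hsa-miR-320a against hsa-miR-320c (0.16). Among the 6 pairs without hsa-miR-320c it was 0.034 to 0.092. Pearson's r of the quantile-normalized log2 signals over the 7 arrays was 0.89 to 0.99 among the members. Over the 14878 pairs r had a median of 0.084 and a highest value of 0.9994. These 7 points come from 2 lines and share 1 slide, and r is given as a description. The members are near-identical in sequence and cross-hybridization between their probes is likely, so that the 5 values are not independent measurements. How much of a probe's signal came from another member was not tested.

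For the comparison of groups the summed signals of all 2006 miRNAs were quantile normalized over the 7 distinct arrays, with a floor of 10, and put on the log2 scale. The next values are normalized signals on the linear scale. hsa-miR-320a had a normalized signal of 370.2 and 352 with PBS and 377 and 366 with trastuzumab in BT474, and 653 with PBS and 494 and 525 with trastuzumab in SKBR3. All 3 SKBR3 arrays then lay above the 4 BT474 arrays, which held for each of the 5 members and for 29.5% of the 305 miRNAs above the floor on at least 1 array. hsa-miR-320c had a normalized signal of 544 on both BT474 PBS arrays, 556 and 600.2 on the BT474 trastuzumab arrays, 955 on the SKBR3 PBS array, and 918 and 1173 on the SKBR3 trastuzumab arrays. hsa-miR-320d had a normalized signal of 878 and 857 with PBS and of 878 on both trastuzumab arrays in BT474, and 1543 with PBS and 1428 and 1405 with trastuzumab in SKBR3. hsa-miR-320b had a normalized signal of 722 to 744 on the 4 BT474 arrays and of 1132 to 1223 on the 3 SKBR3 arrays, and hsa-miR-320e one of 614 to 647 and of 1039 to 1089.8. A miRNA of equal rank on different arrays receives the same value, which is why some replicates have no spread at all. On the log2 scale, the residual SD of the members in the fit to the BT474 arrays was 0.016 to 0.056, against a median of 0.096 for the 173 shared miRNAs.

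**Figure D3:**
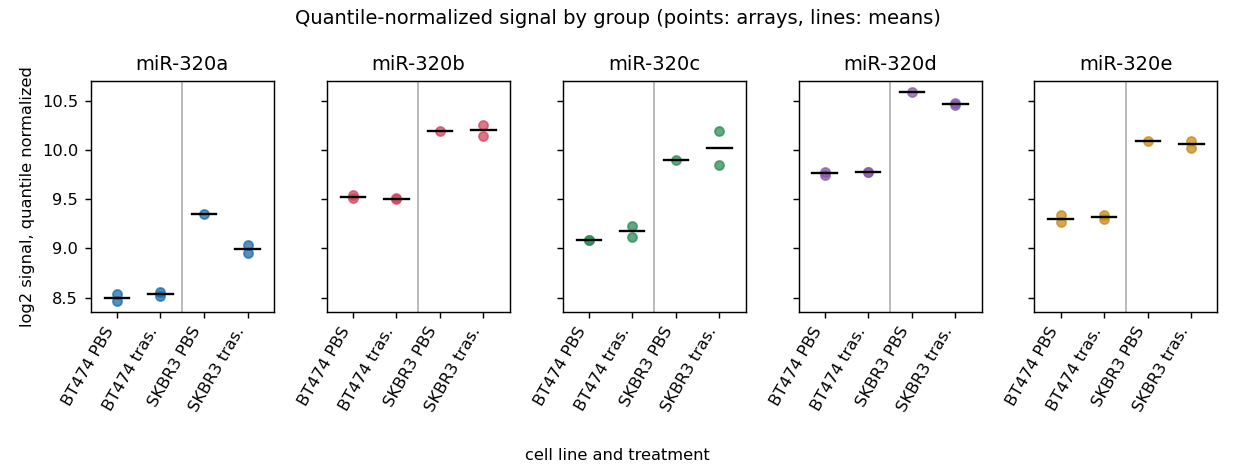
Quantile-normalized log2 signal of each member (vertical axis) in the 4 groups of line and treatment. Points are arrays and lines group means. For each member, all 3 SKBR3 arrays lay above the 4 BT474 arrays on this scale.

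The lines were compared first, with the mean of the BT474 groups minus that of the SKBR3 groups in limma. In these bulk samples a signal from fewer cells and a lower signal per cell cannot be told apart. All 5 members were lower in BT474 at an adjusted p under 0.05, a direction that held for 35.1% of the 305 miRNAs tested, and 68.5% of them passed in either direction. The log2 difference was -0.66 for hsa-miR-320a (SE 0.046, adjusted p = 0.00068), -0.68 for hsa-miR-320b (SE 0.045, adjusted p = 0.00057), and -0.83 for hsa-miR-320c (SE 0.11, adjusted p = 0.0044). It was -0.76 for both hsa-miR-320d (SE 0.032, adjusted p = 0.00016) and hsa-miR-320e (SE 0.043, adjusted p = 0.00036). The quantile-normalized signals in SKBR3 were thus 1.58 to 1.78 times those in BT474. None of the 5 differed by more than 2-fold, which 43.9% of the miRNAs did at the same adjusted p. The members' median of -0.76 stood beside a median of 0.00 over the 305 miRNAs tested and of -0.42 over the 173 detected on all arrays.

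The lines were also compared within each treatment, with the spread still taken from the fit to all 7 arrays. Between the PBS arrays the log2 difference of BT474 minus SKBR3 was -0.67 to -0.86 (adjusted p in limma 0.00066 to 0.022). The SKBR3 PBS group is 1 array, assumed to vary like the other groups, so that these p-values hold no spread of its own. Between the trastuzumab arrays the difference was -0.46 to -0.85 (adjusted p 0.00053 to 0.0096). The smallest was that of hsa-miR-320a with trastuzumab, -0.46, against -0.86 with PBS. All 5 members passed in either treatment, where 27.9% (PBS) and 32.5% (trastuzumab) of the 305 miRNAs were lower in BT474 at an adjusted p under 0.05.

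The direction of the line difference depended on how the arrays were scaled. With no scaling the members were higher in BT474, by 0.35 to 0.50 on the log2 scale, and 3 of 5 passed (hsa-miR-320a, hsa-miR-320b and hsa-miR-320e). Of the 307 miRNAs tested with no scaling, 165 passed as higher in BT474. With the 75th percentile or the median of the 173 shared miRNAs set equal the members were lower in BT474, by -0.41 to -0.56 and by -0.45 to -0.60, and all 5 passed. Of the 307 miRNAs tested, 93 passed as lower in BT474 with the 75th percentile and 96 with the median. The median difference of these 173 miRNAs moved as well, from -0.42 with quantile normalization to -0.20 with the 75th percentile, -0.24 with the median and 0.71 with no scaling. Relative to that median the members were lower in BT474 by -0.24 to -0.41 with quantile normalization. They were lower by -0.21 to -0.36 under the other 3, which share this value by construction because each shifts all miRNAs of an array alike. On that relative scale the members lay inside the spread of the other miRNAs: with quantile normalization 56 to 69 of the 173 had a lower difference than a given member. With the copied array kept under its SKBR3 label, the difference was -0.46 to -0.62 and none of the 5 passed (adjusted p 0.083 to 0.15 in limma). Of the 305 miRNAs tested, 6 passed in that fit.

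**Figure D4:**
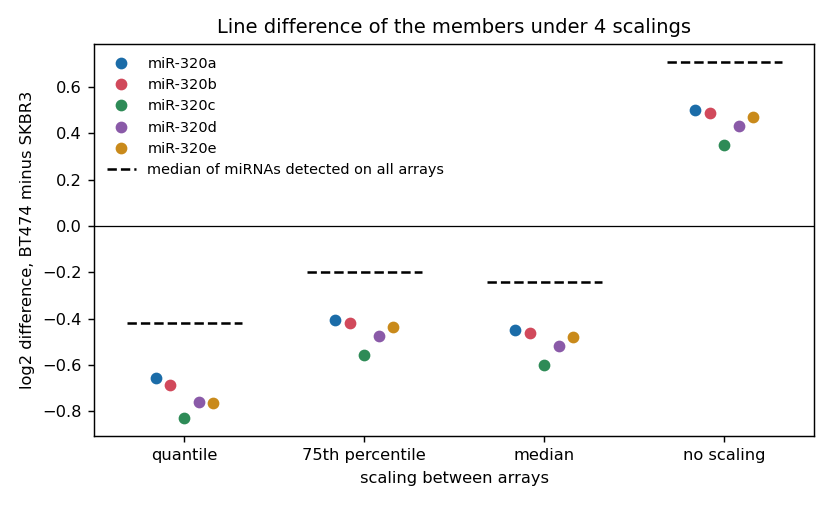
Log2 difference of BT474 minus SKBR3 for each member (points) under 4 scalings between arrays, with the median of the 173 miRNAs detected on all 7 arrays (dashed). The members changed sign with no scaling. They lay below the dashed line, at a distance that is the same by construction in all but quantile normalization.

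Within each array, the signal can also be read against that array's own median over the 173 miRNAs, which no constant scaling changes. hsa-miR-320a lay below that median on every array, by -0.67 to -0.91 on the log2 scale on the 4 BT474 arrays and by -0.23 to -0.54 on the 3 SKBR3 arrays. hsa-miR-320b lay above it on every array, by 0.11 to 0.30 in BT474 and by 0.56 to 0.69 in SKBR3. hsa-miR-320c lay between -0.30 and -0.041 in BT474 and between 0.35 and 0.59 in SKBR3. hsa-miR-320d lay between 0.40 and 0.58 in BT474 and between 0.87 and 1.02 in SKBR3, and hsa-miR-320e between -0.081 and 0.13 in BT474 and between 0.44 and 0.55 in SKBR3. On this scale every BT474 array lay below every SKBR3 array in all 5 members, and in 38.2% of the 173 miRNAs.

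Trastuzumab was compared with PBS in each line, and a miRNA was called where it changed more than 2-fold with an unadjusted p under 0.05, the limits used in the study. In BT474 none of the 5 members was called by limma, against 14.0% of the 285 miRNAs tested. No member passed an unadjusted p under 0.05 without the limit on fold either (36.5% of the miRNAs did), and the methods' t-test in its ordinary form called none. Among the alternatives, hsa-miR-320c passed this unadjusted threshold without BT474 trastuzumab replicate 1, at 0.15 on the log2 scale (adjusted p = 0.079 in limma), against 0.036 without replicate 2 of that group. hsa-miR-320a passed it with normexp background correction, at 0.18 (adjusted p = 0.27 in limma). The log2 difference of trastuzumab minus PBS was 0.041 for hsa-miR-320a (95% interval -0.16 to 0.25), -0.021 for hsa-miR-320b (-0.20 to 0.15) and 0.086 for hsa-miR-320c (-0.14 to 0.31), with limma adjusted p of 0.46 to 0.87 over the 5 members. After quantile normalization the intervals of all 5 lay between -0.20 and 0.31, inside a 2-fold change in either direction. Their width depended on the scaling: the SE of hsa-miR-320a was 0.063 with quantile normalization and 0.25 with no scaling. Intervals were not computed for the other scalings. With no scaling all 5 differences were above 0, from 0.24 to 0.34, and with the 75th percentile all were below 0, from -0.11 to -0.21, beside medians of 0.22 and -0.23 over the 173 shared miRNAs. The median absolute difference after quantile normalization was 0.021 for the members and 0.26 for the 173 shared miRNAs.

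In SKBR3, with 1 PBS array assumed to vary like the 2 trastuzumab arrays, none of the 5 members was called by limma either, against 11.5% of the 227 miRNAs tested, and none passed an unadjusted p under 0.05 alone (30.0% of the miRNAs did) or was called by the ordinary form of the methods' t-test. The largest difference was that of hsa-miR-320a, -0.36 on the log2 scale (95% interval -0.75 to 0.035, unadjusted p = 0.057 and adjusted p = 0.17 in limma). It was -0.12 for hsa-miR-320d (-0.27 to 0.018), -0.035 for hsa-miR-320e (-0.36 to 0.29) and 0.0046 for hsa-miR-320b (-0.50 to 0.51). For hsa-miR-320c the difference was 0.12 with an interval of -1.45 to 1.69, which does not exclude a 2-fold change. Members did pass the unadjusted threshold under some alternatives, all with an adjusted p above 0.05 in limma. hsa-miR-320a passed it with the 7 arrays in 1 fit (adjusted p = 0.062) and among miRNAs detected on every SKBR3 array (adjusted p = 0.15). hsa-miR-320c passed it with no scaling, at 0.60 (adjusted p = 0.12 in limma), and with normexp, at 0.34 (adjusted p = 0.18). Adding up both probes of hsa-miR-320c on every array gave -0.0050 in place of 0.12. Both probes of hsa-miR-320a read lower with trastuzumab relative to the array median, by -0.22 for the brighter and -0.18 for the dimmer probe. So did both probes of hsa-miR-320b, by -0.093 and -0.062, while those of hsa-miR-320d and hsa-miR-320e were split. For hsa-miR-320c the difference was 0.0026 for the brighter probe and 0.40 for the dimmer one, which read close to background. On that scale the summed signals of the 173 shared miRNAs had a median difference of -0.12. With the authors' own log2 values the sign differed between the hsa-miR-320a probes, at -0.27 for the brighter and 0.065 for the dimmer one. All 5 differences were above 0 with the 75th percentile, from 0.086 to 0.42, and with no scaling, from 0.26 to 0.60, beside medians of 0.18 and 0.36 over the 173 shared miRNAs. With the median set equal they ran from -0.21 to 0.12, beside a median of -0.12, and hsa-miR-320c was the member above 0. hsa-miR-320a had the lowest value of the 5 with quantile normalization and with the other 3 scalings, among which the order cannot change.

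**Figure D5:**
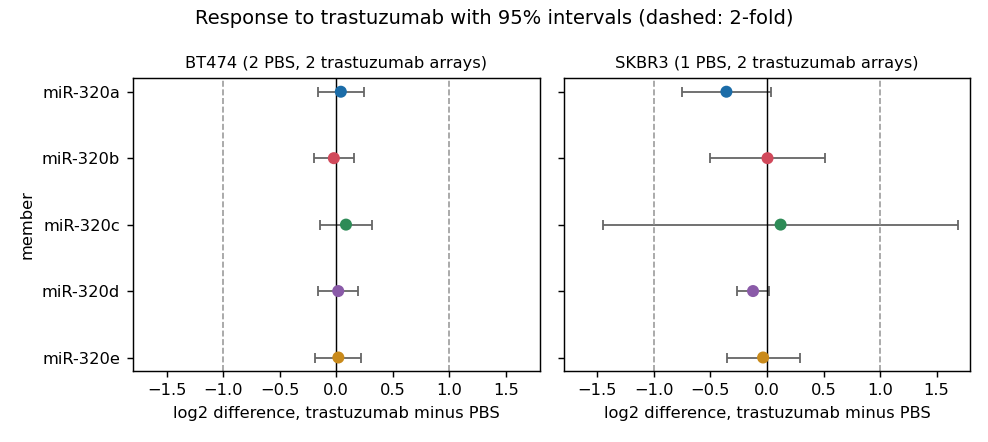
Log2 difference of trastuzumab minus PBS after quantile normalization for each member in BT474 and in SKBR3, with 95% intervals from limma. Dashed lines mark a 2-fold change. All intervals in BT474 lay between -0.20 and 0.31, and in SKBR3 that of hsa-miR-320c ran from -1.45 to 1.69.

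The response was also compared between the lines with the interaction term of the fit to the 7 arrays. None of the 5 members passed an adjusted p under 0.05 in limma, against 16.1% of the 305 miRNAs tested, or 49, which became 22 with the replicate number as a block. At an unadjusted p under 0.05, 1 of 5 passed, hsa-miR-320a, whose response was 0.40 higher in BT474 on the log2 scale (SE 0.091, unadjusted p = 0.013, adjusted p = 0.074). With the replicate block it was 0.40 as well (adjusted p = 0.19 in limma). At that threshold 30.2% of the miRNAs passed. The other 4 members had differences in response of -0.034 to 0.14. The value of hsa-miR-320a was -0.20 with the 75th percentile and -0.018 with the copied array kept under its label, and it passed the unadjusted threshold in neither. Nor did it pass with no scaling (0.078), with the mean of background-subtracted spots (0.45) or with normexp (0.23). Other members passed that threshold under some alternatives. With the 75th percentile these included hsa-miR-320b (-0.41), hsa-miR-320c (-0.58) and hsa-miR-320d (-0.42), beside a median of -0.41 over the 173 shared miRNAs. That median was 0.091 with quantile normalization, the scaling that gave the 0.40 of hsa-miR-320a. hsa-miR-320d also passed it without BT474 PBS replicate 1 (0.15), BT474 PBS replicate 2 (0.12) or BT474 trastuzumab replicate 2 (0.16). Each of these fits holds a single distinct SKBR3 PBS array.

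The deposited log2 values, which the authors quantile normalized, allow the 2 probes of a member to be read apart. In BT474 the difference of trastuzumab minus PBS lay between -0.072 and 0.16 for the brighter probes and between 0.059 and 0.49 for the dimmer ones. In SKBR3, with the single distinct PBS array, it lay between -0.27 and 0.088 for the brighter and between 0.0070 and 0.63 for the dimmer probes. The upper ends, 0.49 and 0.63, are those of the dimmer probe of hsa-miR-320c, which had 0 to 3 of its 15 spots per array well above background, so that they rest on a signal close to background. If the authors normalized within each line, as appears, the SKBR3 values were normalized together with the copied array. Leaving that array out here does not undo this.

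Other miRNAs known or proposed to be made without Drosha were looked at from a list of 21 names. The list holds hsa-miR-484, which like miR-320 begins at the start of its own transcript, and both arms of proposed mirtrons. Mirtrons are a class released by splicing as short introns. Whether each listed name, hsa-miR-1225-5p included, is made that way or without Drosha was not tested here. Of the 21 names, 3 were detected on at least 1 distinct array and 1 on all 7. The latter was hsa-miR-1225-5p, with a summed signal of 174 and 220.2 with PBS and 217 and 209 with trastuzumab in BT474, and 209 with PBS and 378 and 260.4 with trastuzumab in SKBR3. Its log2 difference of BT474 minus SKBR3 was -1.53 after quantile normalization (SE 0.16, adjusted p = 0.0023 in limma) and -0.33 with no scaling (adjusted p = 0.22). hsa-miR-484 was detected on 1 array, BT474 trastuzumab replicate 1, at 53.9, and hsa-miR-877-3p on both BT474 PBS arrays, at 39.4 and 36.4. None of the other 18 names was detected on any of the 7.

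The 5 miRNAs outside the family whose normalized log2 signals followed the members' mean most closely over the 7 arrays, among 168 detected on all of them, were hsa-miR-3665, hsa-miR-1207-5p, hsa-miR-34a-5p, hsa-miR-200c-3p and hsa-miR-22-3p. Their Pearson r with that mean was 0.985 to 0.991, and each of them also had a higher mean in SKBR3 than in BT474 after normalization. hsa-miR-200c-3p, one of the epithelial markers, had a mean normalized log2 signal of 12.59 in BT474 and 13.16 in SKBR3. Ranked by r among the 172 other miRNAs, the nearest member came first for hsa-miR-320b, hsa-miR-320c and hsa-miR-320e, second for hsa-miR-320d and only 9th for hsa-miR-320a. Over these 7 arrays r did not set the family apart from all other miRNAs.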

How the data were processed

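Per the file headers, Agilent Feature Extraction 11.5.1.1 wrote the scanner files that the authors deposited: spot intensities, a summed signal intensity for each miRNA after background subtraction, and a detection flag, with no normalization between arrays; a miRNA not detected has the value 0.1. The authors also deposited log2 values per probe, quantile normalized per the paper's methods, apparently within each line. How spots were summarised for these values is not given in the sources used here.

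Quantile normalization of the summed signals over the 7 distinct arrays was done anew, with a floor of 10, and the values were tested on the log2 scale with limma 3.58.1 (lmFit, eBayes) in R 4.3.3, with Benjamini-Hochberg adjustment over all miRNAs above the floor on at least 1 array of the fit. Each line was fitted alone for trastuzumab against PBS, and the lines and the interaction in 1 fit of 4 group means. The fit was tested on simulated data. Replicates are biological per the labels, and their small number limits the precision. Named are the 5 members, the miRNA with a member's seed and detected names of the list of known or proposed Drosha-independent miRNAs. The 5 miRNAs most correlated with the members' mean are named too. Members and lists were chosen with earlier results of these data known. Alternatives covered scaling, floor, filter, summary, background correction, test, each array left out where a value could be had, the replicate block and the copied array. The methods' t-test was run in its ordinary form, without the random variance model that the study names. The main tests did not use the replicate number, which entered only as a block among the alternatives. Same-numbered distinct arrays of a line share a slide column, though the labels name nothing shared. Across 173 miRNAs the deviations of same-numbered arrays correlated at 0.30 between the 2 BT474 groups. SKBR3 trastuzumab, in other slide columns, gave 0.15 with BT474 PBS and 0.12 with BT474 trastuzumab. These values do not settle whether the number pairs the arrays. Tables were made with Python 3.11.15 and pandas 2.3.3.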

Additional observations from a re-analysis of the deposited data

How the results depend on the processing

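The line difference kept its direction and all 5 members passed under each alternative run, except with no scaling, where it was 0.50, 0.49, 0.35, 0.43 and 0.47 for hsa-miR-320a to hsa-miR-320e with 3 passing, and with the copied array kept under its SKBR3 label, where 0 passed. No alternative run called a member in the other 3 comparisons. Their log2 differences turned sign as follows, those of hsa-miR-320a in SKBR3 (-0.36) and between the responses (0.40) included; the cause was not tested. Trastuzumab minus PBS in BT474 became -0.11, -0.16, -0.21 and -0.20 for hsa-miR-320a, hsa-miR-320c, hsa-miR-320d and hsa-miR-320e with the 75th percentile, 0.11 (median scaling), 0.26 (no scaling), 0.061 (deposited values) and 0.039 (normexp) for hsa-miR-320b, -0.0069 (deposited values), -0.11 (background-subtracted spots) and -0.033 (normexp) for hsa-miR-320d, and -0.045 (background-subtracted spots) and -0.017 (normexp) for hsa-miR-320e. In SKBR3 it became 0.086, 0.21 and 0.30 for hsa-miR-320a, hsa-miR-320d and hsa-miR-320e with the 75th percentile, 0.26, 0.39 and 0.48 with no scaling, and 0.056, 0.28 and 0.38 with the copied array kept. It also became -0.085 (median scaling) and -0.027 (deposited values) for hsa-miR-320b, 0.024 (deposited values) and 0.048 (normexp) for hsa-miR-320d, 0.17 and 0.083 under the same settings for hsa-miR-320e, and -0.0050 for hsa-miR-320c with all probes summed. The difference in response became -0.20, -0.42 and -0.49 for hsa-miR-320a, hsa-miR-320d and hsa-miR-320e with the 75th percentile, -0.018, -0.26 and -0.35 with the copied array kept, -0.15 and -0.22 for hsa-miR-320d and hsa-miR-320e with no scaling, 0.20 and 0.027 for hsa-miR-320b and hsa-miR-320c with median scaling, 0.023, -0.081 and -0.10 for hsa-miR-320b, hsa-miR-320d and hsa-miR-320e with normexp, and 0.13 for hsa-miR-320c with all probes summed.

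Leaving out 1 array at a time left 5 members called between the lines, and 0 in BT474 and in the interaction. Without the only distinct SKBR3 PBS array the line difference rests on the trastuzumab groups and was -0.45 for hsa-miR-320a and -0.70 to -0.84 for the other 4; no SKBR3 response or difference in response could be had without it. In BT474 the response of hsa-miR-320c ranged from 0.036 to 0.15, and that of hsa-miR-320e from -0.022 to 0.065. In SKBR3, where a lone array in each group leaves a value with no test, hsa-miR-320b ranged from -0.055 to 0.063 and hsa-miR-320c from -0.052 to 0.31. The difference in response ranged from -0.083 to 0.034 for hsa-miR-320b and from -0.22 to 0.14 for hsa-miR-320c. The interaction called 29 miRNAs without SKBR3 trastuzumab replicate 1 and 74 without BT474 trastuzumab replicate 2, against 49.

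Over all miRNAs, the BT474 count of 40 became 20 among those detected on every array, 103 with background-subtracted spots, 2 with normexp, 26 with the methods' t-test, 85 with the deposited values and 64 with all probes summed. The SKBR3 count of 26 became 11, 132, 15, 11, 119 and 78 under the same settings and 14 with the copied array kept. The line count of 209 became 378 with background-subtracted spots, 379 with normexp, 387 with all probes summed and 6 with the copied array kept, and its split of 102 higher and 107 lower in BT474 became 124 and 93 with the 75th percentile and 165 and 21 with no scaling. The interaction count of 49 became 25 with no scaling, 23 among those detected on every array, 109 with all probes summed and 5 with the copied array kept.

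The replicate block changed no member's call; it moved the interaction count to 22, and the BT474 and line counts to 32 and 196. In SKBR3 it left no test. The median scaling, the sum of all probes and the comparison of lines within a treatment were chosen after seeing the data.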
